A study of Danio rerio with 24 samples.

Results

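The 6 microRNAs (miRNAs) described here are a set of muscle miRNAs, taken by name from the arrays: dre-miR-1, dre-miR-206, dre-miR-133a, dre-miR-133b, dre-miR-133c and dre-miR-499. All 6 names were present on both array types, among 231 names on custom Agilent arrays and 224 zebrafish names on Exiqon arrays, and only guide strands were taken. RNA came from whole zebrafish embryos of the wild-type TL strain. Embryos were exposed from 30 hours post-fertilization (hpf) for 1 h to 2,3,7,8-tetrachlorodibenzo-p-dioxin (TCDD) or to the solvent DMSO, and were collected at 36 or 60 hpf. TCDD is a ligand of the aryl hydrocarbon receptor, and its known effects in zebrafish embryos include malformation of the heart. Each of the 4 groups (36 hpf DMSO, 36 hpf TCDD, 60 hpf DMSO and 60 hpf TCDD) had 3 biological replicates on 12 arrays of each type, and this small number sets the precision. The sources used here give neither the dose of TCDD nor the number of embryos behind a replicate.

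A miRNA is a short RNA that guides a silencing complex to matching sites in messenger RNAs and lowers their output. In vertebrates miR-1 and miR-133 are made together from shared transcripts under the control of muscle transcription factors, and miR-206, a close relative of miR-1 with the same seed, is made with miR-133b. In mammals miR-1 and miR-206 favour muscle differentiation, miR-133 represses serum response factor, and miR-499 lies in an intron of a myosin heavy chain gene. In zebrafish, miR-1 and miR-133 shape muscle gene expression and the actin of the sarcomere.

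The Agilent probes show how much the members of each family have in common, and they are printed because the results turn on differences between such relatives. The longer of the 2 nested probes of each name is given 5′ to 3′. Agilent levels of dre-miR-206 come from its shorter probe of 15 bases, while its sequence and positions here are those of the longer. Capitals mark bases that differ between aligned family members, and dre-miR-499, which was aligned to none, has no capitals.
dre-miR-1: ATacaTacttcTttacattcc
dre-miR-206: CCacaCacttcCttac
dre-miR-133a: CagctggttgaaGggga
dre-miR-133b: TagctggttgaaGgggacc
dre-miR-133c: TagctggttgaaAggga
dre-miR-499: taaacatcactgcaagtct
Counted from 1 at the probe's 5′ end, the dre-miR-133a and dre-miR-133b probes matched at 16 of 17 aligned bases and differed by C1T. The dre-miR-133b and dre-miR-133c probes also matched at 16 of 17 bases and differed by G13A. The dre-miR-1 and dre-miR-206 probes matched at 12 of 16 aligned bases, with A1C, T2C, T6C and T12C. Hybridization of a miRNA to a relative's probe was not measured, so values of the miR-133 members are uncertain in that respect.

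The files place the probes on the danRer5 build, with no strand. The dre-miR-206 probe lies at chr17:5900112-5900127 and at chr20:18916205-18916220, and a miR-133 member neighbours each copy. The dre-miR-133c probe, at chr17:5895840-5895855, lies 4256 bases from the first. The dre-miR-133b probe, at chr20:18914927-18914944, lies 1260 bases from the other. A dre-miR-133a position at scaffold3086:12290-12306 lies 2167 bases from dre-miR-1 at scaffold3086:14474-14494, and the dre-miR-133a probe has a further position at chr23:5570936-5570952. The dre-miR-499 probe lies at chr11:24971028-24971045 with no other member near it. The recorded span is 1 base shorter than the probe for dre-miR-133b, dre-miR-133c and dre-miR-499. In the RefSeq gene table of the GRCz12tu assembly, used for neighbours only, 0 genes lie between mir133c and mir206-2 on chromosome 17, between mir133b and mir206-1 on chromosome 20, or between mir133a-1 and mir1-2 on chromosome 2. There, 1 gene lies between mir133a-2 and mir1-1 on chromosome 23.

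An Agilent level is the log2 of a probe's intensity over the 75th percentile of its array, and an Exiqon level is the log2 ratio of the sample (Hy3) over a common reference pool (Hy5). Levels are compared between groups and never between probes. Of 18 tissue markers, which include the 6 muscle miRNAs, 18 were detected on every Exiqon array and 14 on every Agilent array. The other 4 were the red blood cell marker dre-miR-144 on 11 Agilent arrays, the liver marker dre-miR-122 on 5, and the smooth muscle markers dre-miR-143 on 6 and dre-miR-145 on 0. Each of the 6 muscle miRNAs was detected on 12 of 12 arrays of both types. Over all probes 241 to 255 of 255 were detected per Exiqon array, so detection there sets few probes apart. On Agilent 191 to 277 of 490 probes were detected per array. Exiqon arrays of different stages correlated negatively over all probes, from -0.612 to -0.509. The ratio was read as sample over reference, since the dyes and the pool are named in the labels. The 3 Exiqon arrays of 36 hpf DMSO were scanned apart from the other 9, so this group and its scan cannot be told apart.

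With the scalings used, the muscle miRNAs did not move as 1 group between 36 and 60 hpf. On Agilent, dre-miR-133a and dre-miR-1 were higher at 60 hpf and dre-miR-206 and dre-miR-133c lower, in DMSO and in TCDD embryos alike. On Exiqon, dre-miR-133a and dre-miR-499 were higher and dre-miR-206 and dre-miR-133c lower. Thus dre-miR-133a rose, and dre-miR-206 and dre-miR-133c fell, past the threshold on both array types with the scalings used. Another scaling turned a direction for each of these 3, as given beside their values. Sample names are the same on both array types, so the types may share RNA and are not counted as separate sets of embryos. With median centring of the Exiqon arrays every member rose, from 0.086 to 0.64 in DMSO and from 0.18 to 0.70 in TCDD embryos. With the Exiqon sample channel alone every member was below 0 in TCDD embryos, from -0.80 to -0.20. In DMSO embryos dre-miR-499 alone was above 0 there, at 0.094. The Exiqon change of dre-miR-133a, 0.20 and 0.17, stood beside medians of 0.11 and 0.14 over all miRNAs. The Exiqon arrays of 36 hpf DMSO were scanned apart, so stage and scan cannot be told apart in Exiqon DMSO embryos. Whole embryos were measured, so fewer cells of a type and less RNA per cell cannot be told apart. The threshold was a limma adjusted p under 0.05 over all miRNAs tested in a comparison, two-sided, with n = 3 arrays per group.

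These counts were set beside the shares of all miRNAs. In DMSO embryos on Agilent, 2 of 6 muscle miRNAs were higher where 48.5% of 134 tested miRNAs were, and 2 were lower where 32.8% were. In TCDD embryos the same counts of 2 and 2 stood beside 50% and 31.3%. On Exiqon, 2 were higher in DMSO embryos beside 48.9% of 223 tested miRNAs, and 2 lower beside 16.1%. In TCDD embryos on Exiqon, 2 and 2 stood beside 52% and 16.6%. The median change of the 6 was 0.11 log2 in DMSO embryos on Agilent, beside 0.13 over all miRNAs, and 0.025 on Exiqon, beside 0.11. In TCDD embryos the medians were 0.07 beside 0.18 on Agilent and 0.035 beside 0.14 on Exiqon.

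dre-miR-133a, which in vertebrates is made with miR-1, showed the clearest rise on Agilent. Its Agilent level was -1.60, -1.56 and -1.57 in the 36 hpf DMSO replicates and -1.12, -1.05 and -0.97 in the 60 hpf DMSO replicates. In TCDD embryos it was -1.68, -1.65 and -1.63 at 36 hpf and -0.96, -1.05 and -1.05 at 60 hpf. Every 60 hpf array lay above every 36 hpf array. The change was 0.53 ± 0.052 (log2, SE), or 1.44-fold, in DMSO embryos (adjusted p = 1.64e-06) and 0.64 ± 0.052, or 1.55-fold, in TCDD embryos (adjusted p = 2.61e-07). Its other, dimmer Agilent probe changed by 0.59 and 0.70. With quantile normalization between arrays the DMSO change was 0.09 and no longer passed (adjusted p = 0.176).

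On Exiqon the dre-miR-133a ratio was -0.074, -0.093 and -0.11 at 36 hpf and 0.10, 0.096 and 0.12 at 60 hpf in DMSO embryos. In TCDD embryos it was -0.093, -0.11 and -0.19 at 36 hpf and -0.053, 0.12 and 0.051 at 60 hpf. The stages did not overlap, and the lowest 60 hpf array was the first TCDD replicate. The change was 0.20 ± 0.043 (adjusted p = 0.000868) and 0.17 ± 0.043 (adjusted p = 0.00277), and it turned to -0.38 and -0.33, not past the threshold, with the sample channel alone. A further Exiqon probe shared by dre-miR-133a and dre-miR-133b changed by 0.00028 ± 0.041 in DMSO embryos and 0.064 ± 0.045 in TCDD embryos and did not pass. That probe had no value on the first 60 hpf TCDD replicate, whose spots were marked by the scanner software.

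dre-miR-133c, whose gene neighbours a copy of the dre-miR-206 gene, went the other way. Its Agilent level was -2.59, -2.98 and -3.12 in 36 hpf DMSO embryos and -3.67, -3.21 and -3.67 in 60 hpf DMSO embryos. In TCDD embryos it was -3.01, -3.02 and -3.01 at 36 hpf and -3.62, -3.58 and -3.74 at 60 hpf. The stages did not overlap, but the DMSO replicates of each stage were spread widely. The change was -0.62 ± 0.14, or 1.53-fold lower, in DMSO embryos (adjusted p = 0.00163) and -0.63 ± 0.14, or 1.55-fold lower, in TCDD embryos (adjusted p = 0.0013), and it was below 0 under each Agilent scaling tried. The other Agilent probe of dre-miR-133c was detected on 2 of 12 arrays and changed by 0.20 ± 0.20 and -0.04 ± 0.20, and the mean of both probes did not pass, at -0.21 (adjusted p = 0.25) and -0.34 (adjusted p = 0.0736).

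On Exiqon the dre-miR-133c ratio was 0.13, 0.14 and 0.16 at 36 hpf and -0.015, -0.01 and 0.077 at 60 hpf in DMSO embryos. In TCDD embryos it was 0.099, 0.12 and 0.035 at 36 hpf and -0.07, -0.0068 and 0.032 at 60 hpf. The stages were close to each other in TCDD embryos, where 0.035 at 36 hpf stood beside 0.032 at 60 hpf. The change was -0.13 ± 0.039 in DMSO embryos (adjusted p = 0.00961) and -0.10 ± 0.039 in TCDD embryos (adjusted p = 0.0334), and median centring of the arrays turned it to 0.086 and 0.18, not past the threshold. The TCDD call was lost without 36 hpf TCDD replicate 1 (-0.093, adjusted p = 0.0928), without 36 hpf TCDD replicate 2 (-0.082, adjusted p = 0.122) or without 60 hpf TCDD replicate 1 (-0.072, adjusted p = 0.13). It was also lost with only the compared groups in the fit (adjusted p = 0.0761) or only the first scan (adjusted p = 0.0607). The same held when the day of image analysis was a block (-0.085, adjusted p = 0.0633). The DMSO call was lost with the sample channel alone (-0.34, adjusted p = 0.286). This probe was the dimmest of the members on Exiqon, with intensities from 213 to 326.

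dre-miR-206, which in mammals is a miRNA of skeletal more than cardiac muscle, was lower at 60 hpf. Its Agilent level was 2.19, 2.41 and 2.48 in 36 hpf DMSO embryos and 2.02, 2.07 and 2.13 in 60 hpf DMSO embryos. The TCDD embryos had 2.36, 2.43 and 2.48 at 36 hpf and 2.14, 1.91 and 2.14 at 60 hpf. Every 60 hpf array lay below every 36 hpf array. The change was -0.29 ± 0.085, or 1.22-fold lower, in DMSO embryos (adjusted p = 0.0081) and -0.36 ± 0.085, or 1.29-fold lower, in TCDD embryos (adjusted p = 0.00181), and quantile normalization turned it to 0.016 and 0.096, not past the threshold. These values come from the dimmer probe, since the brighter probe was saturated in up to 50% of its spots on an array. The brighter probe changed by -0.27 in DMSO embryos, where it did not pass (adjusted p = 0.0797), and by -0.65 in TCDD embryos, where it had no value on 1 array.

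On Exiqon the dre-miR-206 ratio was 0.17, 0.19 and 0.11 at 36 hpf and -0.10, -0.079 and -0.13 at 60 hpf in DMSO embryos. Values after TCDD were 0.16, 0.14 and 0.27 at 36 hpf and 0.06, -0.16 and -0.054 at 60 hpf. The stages did not overlap in either treatment. The change was -0.26 ± 0.052 (adjusted p = 0.000494) and -0.24 ± 0.052 (adjusted p = 0.00092), and median centring turned it to 0.16, not past the threshold, and to 0.34 (adjusted p = 0.0128).

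dre-miR-1, the most studied muscle miRNA, was higher at 60 hpf on Agilent. Its Agilent level was 1.20, 1.33 and 1.46 in 36 hpf DMSO embryos and 1.65, 1.64 and 1.73 in 60 hpf DMSO embryos. The TCDD replicates gave 1.35, 1.34 and 1.40 at 36 hpf and 1.67, 1.51 and 1.68 at 60 hpf. The stages did not overlap, and the change was 0.35 ± 0.07, or 1.27-fold, in DMSO embryos (adjusted p = 0.00074) and 0.26 ± 0.07, or 1.20-fold, in TCDD embryos (adjusted p = 0.00481). Scaling to the percentile over all probes took it to 0.01 (adjusted p = 0.90) and turned it to -0.031 (adjusted p = 0.718), neither past the threshold. Its other Agilent probe changed by 0.35 and 0.39.

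The Exiqon probes of dre-miR-1 differed from each other. On the brighter probe the ratio was 0.014, -0.034 and -0.022 at 36 hpf and 0.021, 0.03 and -0.023 at 60 hpf in DMSO embryos, so the stages overlapped. With TCDD the ratio was 0.0016, 0.033 and 0.031 at 36 hpf and 0.086, 0.046 and 0.059 at 60 hpf, with no overlap. The change on that probe was 0.024 ± 0.031 in DMSO embryos (adjusted p = 0.494) and 0.042 ± 0.031 in TCDD embryos (adjusted p = 0.253). The dimmer probe changed by 0.55 ± 0.045 and 0.53 ± 0.045. The mean of both passed, at 0.29 (adjusted p = 2.9e-06) and 0.28 (adjusted p = 2.9e-06). The brighter Exiqon probe passed under other settings. Median centring gave 0.45 (adjusted p = 0.0148) and 0.63 (adjusted p = 0.0013), no background correction gave 0.079 in TCDD embryos (adjusted p = 0.0244), and the sample channel alone turned it to -0.30 in DMSO embryos (adjusted p = 0.0401). The call on that probe thus rests on the normalization.

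dre-miR-499 was higher at 60 hpf on Exiqon and did not pass on Agilent. Its Exiqon ratio was -0.11, -0.12 and -0.097 in 36 hpf DMSO embryos and 0.25, 0.25 and 0.32 in 60 hpf DMSO embryos. After TCDD the values were -0.13, -0.16 and -0.22 at 36 hpf and 0.09, 0.22 and 0.16 at 60 hpf. The 4 groups did not overlap, in the order 36 hpf TCDD, 36 hpf DMSO, 60 hpf TCDD and 60 hpf DMSO. The change between stages was 0.38 ± 0.039, or 1.30-fold, in DMSO embryos (adjusted p = 7.68e-07) and 0.33 ± 0.039, or 1.25-fold, in TCDD embryos (adjusted p = 3.57e-06). With the sample channel alone it was 0.094 in DMSO embryos and turned to -0.26 in TCDD embryos, neither past the threshold.

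On Agilent, dre-miR-499 was -1.87, -1.83 and -1.83 at 36 hpf and -1.67, -1.92 and -1.70 at 60 hpf in DMSO embryos. TCDD embryos gave -1.82, -1.94 and -1.95 at 36 hpf and -1.86, -1.88 and -1.91 at 60 hpf. The stages overlapped in both treatments. The change was 0.082 ± 0.067 (95% interval -0.064 to 0.23, adjusted p = 0.272) in DMSO embryos and 0.019 ± 0.067 (interval -0.13 to 0.17, adjusted p = 0.788) in TCDD embryos. Without 60 hpf DMSO replicate 2 the DMSO change was 0.16 and passed (adjusted p = 0.0198). It turned below 0 and passed when arrays were scaled to the percentile over all probes, at -0.25 and -0.27, or quantile normalized, at -0.35 in both treatments. The other, dimmer Agilent probe was detected on 11 of 12 arrays. It changed by -0.027 ± 0.11 in DMSO embryos and 0.13 ± 0.11 in TCDD embryos.

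dre-miR-133b, whose gene lies beside the other copy of the dre-miR-206 gene, did not pass on either array type with the scalings used. Its Agilent level in DMSO embryos ran from 1.98 to 2.11 at 36 hpf and from 2.13 to 2.19 at 60 hpf, with no overlap. In TCDD embryos it ran from 1.95 to 2.04 and from 2.01 to 2.20, so the stages overlapped there. The Agilent change was 0.14 ± 0.061 in DMSO embryos (adjusted p = 0.0541) and 0.12 ± 0.061 in TCDD embryos (adjusted p = 0.0846). It passed in DMSO embryos without 36 hpf DMSO replicate 3 (0.18, adjusted p = 0.0206) and in TCDD embryos without 60 hpf TCDD replicate 2 (0.17, adjusted p = 0.0191). Scaling to the percentile over all probes turned it to -0.20 and -0.17, and quantile normalization gave 0.48 and 0.52, each past the threshold. The Exiqon change was 0.026 ± 0.04 (adjusted p = 0.562) and 0.029 ± 0.04 (adjusted p = 0.539). Median centring gave 0.44 (adjusted p = 0.0254) and 0.58 (adjusted p = 0.00413), past the threshold, while the sample channel alone turned it to -0.54 and -0.41, not past it.

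**Figure D1:**
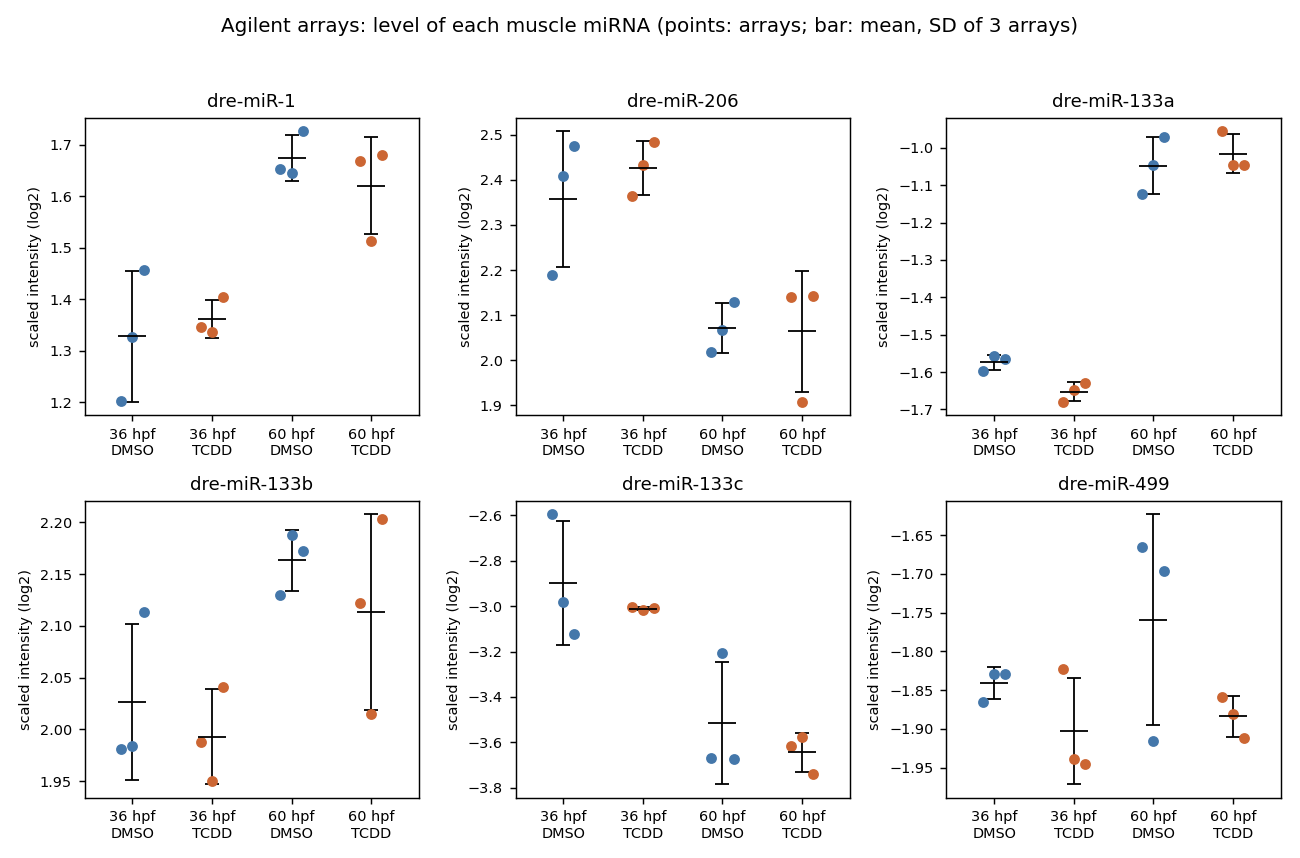
Agilent levels (log2 of intensity over the array's 75th percentile, vertical axes, each with its own range) of the 6 muscle miRNAs in the 4 groups, with points for arrays and bars for the mean and SD of 3 arrays. dre-miR-133a lies between -1.68 and -1.56 at 36 hpf and between -1.12 and -0.96 at 60 hpf, while dre-miR-133c lies lower at 60 hpf than at 36 hpf.

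**Figure D2:**
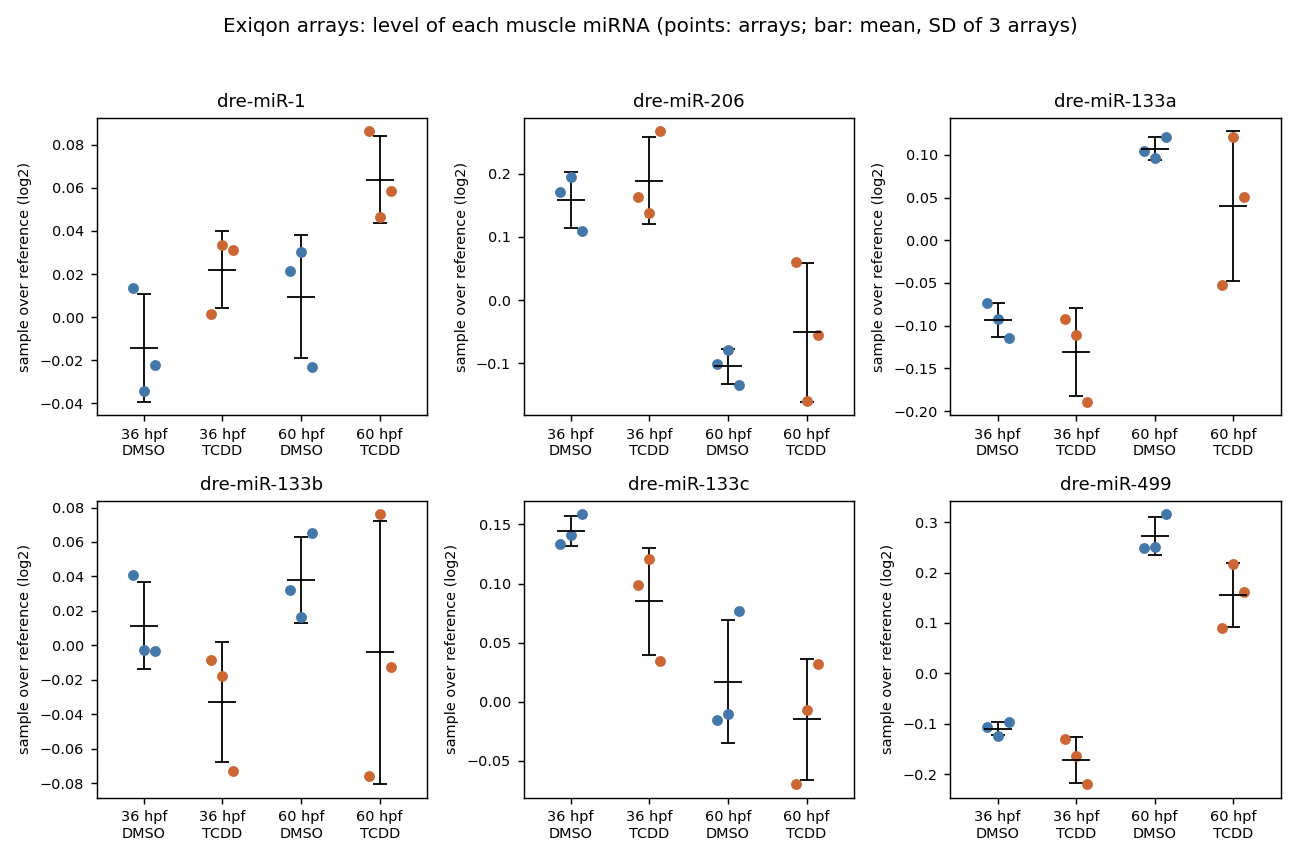
Exiqon log2 ratios of sample over reference (vertical axes, each with its own range) of the 6 muscle miRNAs in the 4 groups, with points for arrays and bars for the mean and SD of 3 arrays. dre-miR-499 lies between -0.22 and -0.097 at 36 hpf and between 0.09 and 0.32 at 60 hpf, and the stages overlap for dre-miR-133b.

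**Figure D3:**
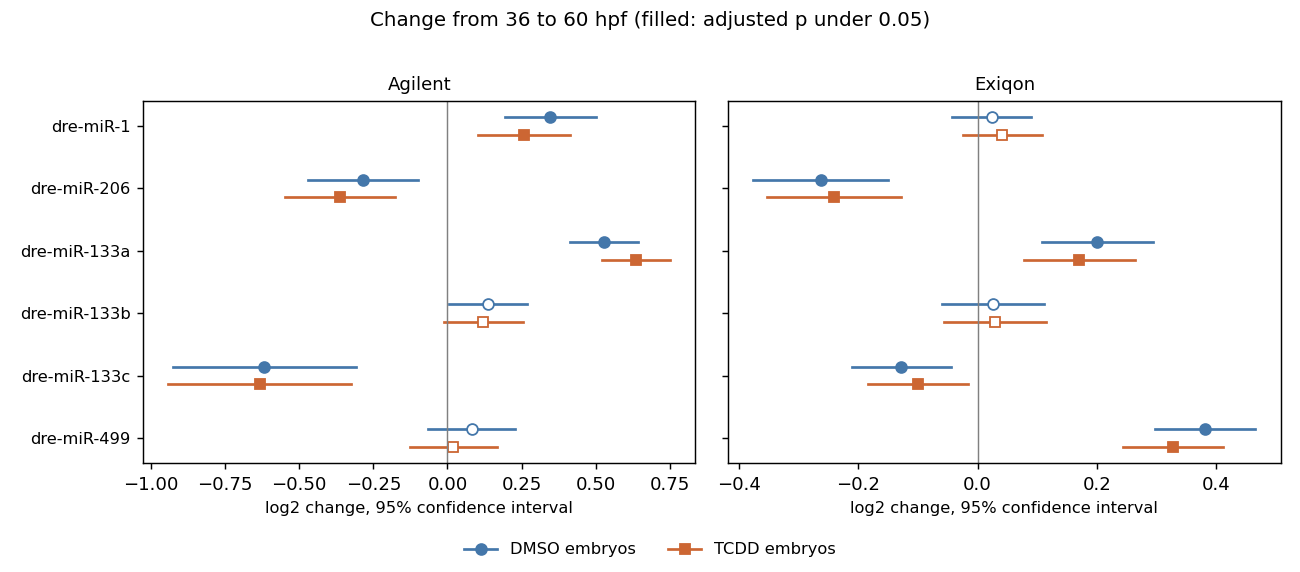
Change from 36 to 60 hpf (log2, horizontal axes, with 95% confidence intervals) of each muscle miRNA on Agilent and Exiqon arrays, for DMSO embryos (circles) and TCDD embryos (squares), filled where the adjusted p was under 0.05. dre-miR-133a lies to the right of 0 and dre-miR-206 and dre-miR-133c to the left on both array types with the scalings used, and a scaling that turned a direction exists for each.

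The scaling sets where 0 lies in a comparison of stages. In DMSO embryos the median change over all tested Agilent miRNAs was 0.13 as scaled here, -0.17 with the percentile over all probes and -0.14 after quantile normalization. Of the Agilent calls in DMSO embryos 65 were higher and 44 lower as scaled here, 47 higher and 66 lower with the percentile over all probes, and 47 and 64 after quantile normalization. In TCDD embryos these splits were 67 and 42, 49 and 62, and 45 and 63. On Exiqon the DMSO median was 0.11 as normalized here, 0.31 with median centring and 0.013 with the sample channel alone, and the TCDD median was 0.14, 0.43 and -0.14. The Exiqon splits in DMSO embryos were 109 higher and 36 lower, 122 and 9 with median centring, and 44 and 18 with the sample channel alone. In TCDD embryos they were 116 and 37, 150 and 7, and 31 and 57.

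Each member's change was therefore also taken relative to the median of all tested miRNAs, under 4 Agilent and 5 Exiqon scalings. Of these, the percentile over all probes rescales an Agilent array by a single factor. The median takes that factor out apart from floored values, so this scaling is hardly a separate check. The relative change of dre-miR-133c was below 0 under each scaling, from -1.15 to -0.57 on Agilent and from -0.38 to -0.21 on Exiqon in DMSO embryos. In TCDD embryos it ran from -1.19 to -0.70 and from -0.45 to -0.23. The relative change of dre-miR-133a was above 0 under the 4 Agilent scalings, from 0.23 to 0.40 in DMSO embryos and from 0.39 to 0.46 in TCDD embryos. On Exiqon it was 0.092 in DMSO and 0.027 in TCDD embryos as normalized here. Over the 5 Exiqon scalings it ran from -0.39 to 0.29 and from -0.19 to 0.27.

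For dre-miR-206 the relative change was below 0 under the 5 Exiqon scalings, from -0.75 to -0.15 in DMSO embryos. On Agilent it ran from -0.45 to 0.15, with quantile normalization alone above 0. The relative change of dre-miR-1 was above 0 under the 4 Agilent scalings, from 0.18 to 0.70 in DMSO embryos, and from -0.31 to 0.14 on Exiqon. For dre-miR-499 it was below 0 on Agilent, from -0.21 to -0.034, and above 0 on Exiqon, from 0.081 to 0.33, in DMSO embryos. In TCDD embryos it was below 0 on Agilent, from -0.22 to -0.14, and ran from -0.13 to 0.25 on Exiqon, above 0 under 4 of 5 scalings.

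**Figure D4:**
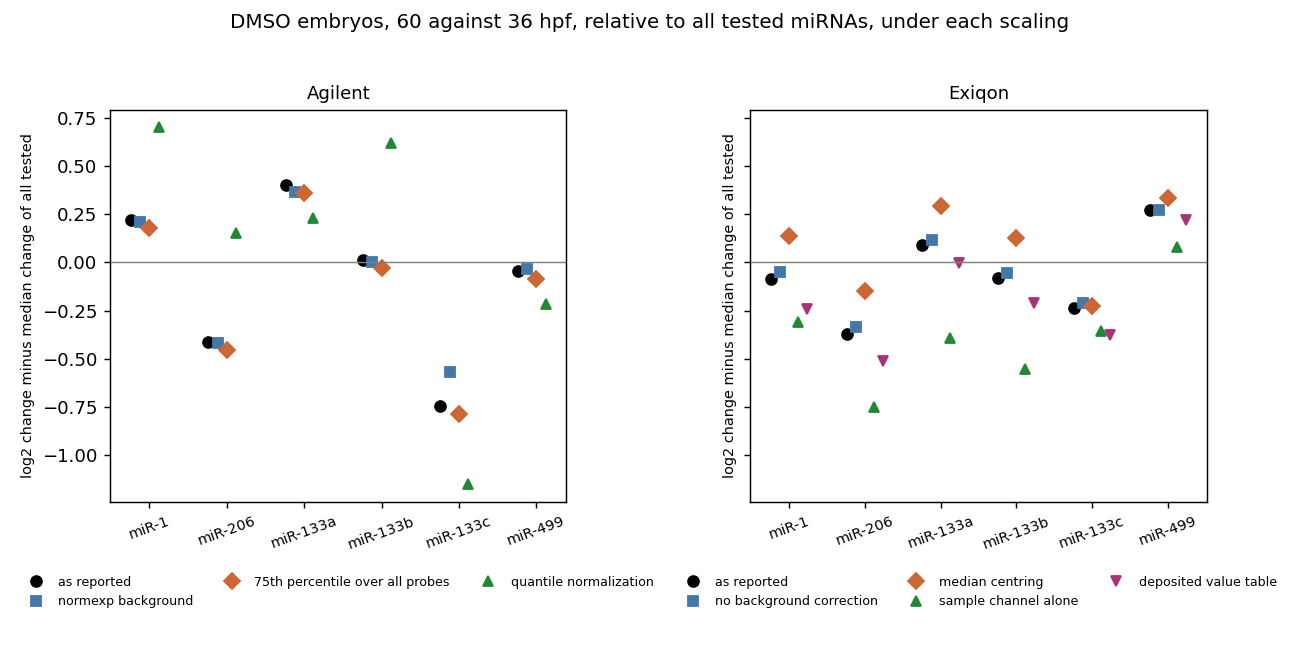
Change from 36 to 60 hpf in DMSO embryos minus the median change of all tested miRNAs (log2, vertical axis) for each muscle miRNA under each scaling, on Agilent and Exiqon arrays. dre-miR-133c lies below 0 under every scaling shown, from -1.15 to -0.57 on Agilent and from -0.38 to -0.21 on Exiqon, while dre-miR-1, dre-miR-206, dre-miR-133a and dre-miR-133b lie on both sides of 0 on an array type.

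Differences between members on the same array do not move when an array is scaled by a single factor, but they can move with loess or quantile normalization. The log2 difference of dre-miR-1 minus dre-miR-206 was 0.63 higher at 60 hpf than at 36 hpf on Agilent and 0.28 higher on Exiqon, over 6 arrays of each stage with no overlap of the stages. The difference of dre-miR-133a minus dre-miR-133c was 1.21 and 0.30 higher, again with no overlap. For dre-miR-133a minus dre-miR-133b the shift was 0.45 and 0.16, and for dre-miR-133b minus dre-miR-133c 0.75 and 0.14, with no overlap on either array type. For dre-miR-499 minus dre-miR-206 it was 0.38 on Agilent, where the stages overlapped, and 0.61 on Exiqon, where they did not. Under the other scalings, in DMSO and TCDD embryos, the shift stayed above 0 on both array types for dre-miR-1 minus dre-miR-206, from 0.34 to 0.63 on Agilent and from 0.22 to 0.61 on Exiqon. Quantile normalization of Agilent turned dre-miR-133a minus dre-miR-133b to -0.39 and -0.26 and dre-miR-499 minus dre-miR-206 to -0.37 and -0.44. The Exiqon sample channel alone turned dre-miR-133a minus dre-miR-133c to -0.036 and dre-miR-133b minus dre-miR-133c to -0.20 in DMSO embryos. These shifts are given as a description with no test.

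The Agilent arrays lay on 2 slides, with replicate 1 of each group on the first slide and replicates 2 and 3 on the second. In DMSO embryos dre-miR-133a changed by 0.47 among first-slide arrays and 0.55 among those of the other slide, dre-miR-1 by 0.45 and 0.29, and dre-miR-206 by -0.17 and -0.34. The change of dre-miR-133c was -1.07 for replicate 1 and -0.39 for replicates 2 and 3, the largest gap between slides among these values. In TCDD embryos the changes on the slides were 0.72 and 0.59 for dre-miR-133a, 0.32 and 0.23 for dre-miR-1, -0.22 and -0.43 for dre-miR-206, and -0.61 and -0.64 for dre-miR-133c. The direction of these 4 was the same on both slides.

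TCDD did not move any of the 6 muscle miRNAs past the threshold at either stage on either array type. At 36 hpf on Agilent 0 of 6 passed beside 0% of 134 miRNAs, with 7 of the 134 and 0 of the 6 at an unadjusted p under 0.05. At 60 hpf on Agilent 0 of 6 passed beside 2.99%. There, 13 of the 134 and 0 of the 6 had an unadjusted p under 0.05. On Exiqon 0 of 6 passed at 36 hpf beside 0.448% of 223 miRNAs, and 0 of 6 at 60 hpf beside 6.73%. At an unadjusted p under 0.05 the Exiqon count at 36 hpf was 0 of 6, beside 16 of all 223. At 60 hpf it was 1 of 6, dre-miR-499, beside 56 of all 223. A count of 0 of 6 lies near these shares.

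With the scalings used, the intervals bound what a change could be at this number of arrays. On Agilent the largest change of a member with TCDD was 0.11 log2 at 36 hpf and 0.13 at 60 hpf, taken without sign, and the farthest 95% bound from 0 was 0.42 and 0.44, both for dre-miR-133c. On Exiqon the largest change was 0.062 and 0.12, and the farthest bound was 0.15 and 0.20. Other settings went past these Exiqon bounds. At 60 hpf the change ran from -0.44 to -0.055 for dre-miR-499 and from -0.42 to -0.0023 for dre-miR-133c. At 36 hpf it ran from -0.21 to -0.014 for dre-miR-133b. Relative to the median of all miRNAs, dre-miR-499 at 60 hpf ran from -0.18 to -0.12 over the 5 Exiqon scalings. The median change of the 6 was -0.047 and -0.052 on Agilent, beside -0.0035 and -0.034 over all miRNAs. On Exiqon it was -0.041 and -0.037, beside -0.011 and 0.0054.

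dre-miR-499 at 60 hpf came nearest to the threshold. The Exiqon ratio of the 60 hpf TCDD arrays, 0.09, 0.22 and 0.16, lay below that of the 60 hpf DMSO arrays, 0.25, 0.25 and 0.32, with no overlap. The change was -0.12 ± 0.039 (interval -0.20 to -0.032, adjusted p = 0.0867). Without 60 hpf TCDD replicate 2, the highest of the 3, it was -0.15 and passed (adjusted p = 0.0205). On the first image analysis day alone, which held 3 DMSO arrays and 1 TCDD array, the change was -0.055. The second day held 60 hpf TCDD replicates 1 and 3, so without replicate 2 treatment and day cannot be told apart. On Agilent the 60 hpf change of dre-miR-499 was -0.12 ± 0.067 (interval -0.27 to 0.022, adjusted p = 0.496), and the treatments overlapped because 60 hpf DMSO replicate 2 lay at -1.92. On the slides apart it was -0.19 and -0.09. The other, dimmer Agilent probe of dre-miR-499 changed by 0.020 ± 0.11 with TCDD at 60 hpf.

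For the other members, the changes with TCDD on Agilent ran from -0.11 to 0.069 at 36 hpf and from -0.13 to 0.032 at 60 hpf. At 36 hpf the treatments did not overlap for dre-miR-133a on Agilent, with a change of -0.079 ± 0.052 (adjusted p = 0.942). On Exiqon the changes of the other members ran from -0.06 to 0.036 at 36 hpf and from -0.068 to 0.054 at 60 hpf. At 36 hpf on Exiqon the treatments did not overlap for dre-miR-133b (-0.044 ± 0.04, adjusted p = 0.706), dre-miR-133c (-0.06 ± 0.039, adjusted p = 0.674) and dre-miR-499 (-0.062 ± 0.039, adjusted p = 0.674). Each was lower with TCDD and short of the threshold. The 36 hpf DMSO arrays were scanned apart, so treatment and scan cannot be told apart there. The share of all miRNAs without overlap is not given here, so a lack of overlap is a description only. At 60 hpf on Exiqon the treatments did not overlap for dre-miR-1, with a change of 0.054 ± 0.031 (adjusted p = 0.284), while on Agilent dre-miR-1 changed by -0.054 ± 0.07 (adjusted p = 0.819). When the day of image analysis was a block, the Exiqon changes of dre-miR-206, dre-miR-133a and dre-miR-133b at 60 hpf turned sign, to -0.039, 0.0025 and 0.018, and remained short of the threshold. The second day held TCDD arrays alone, 36 hpf replicate 3 and 60 hpf replicates 1 and 3, so day and treatment are partly confounded. At 60 hpf only TCDD replicate 2 was of the first day.

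The effect of TCDD was not shown to differ between stages for any member. The difference of the TCDD effect, 60 hpf minus 36 hpf, passed for 0 of 6 on Agilent beside 1.49% of all miRNAs. On Exiqon it passed for 0 of 6 beside 2.69%. At an unadjusted p under 0.05 the counts were 0 of 6 on both, beside 11 of 134 Agilent and 34 of 223 Exiqon miRNAs. The difference ran from -0.088 to 0.11 log2 on Agilent and from -0.054 to 0.028 on Exiqon. The smallest adjusted p was 0.619 on Agilent, for dre-miR-133a, and 0.674 on Exiqon, for dre-miR-499. A p that misses the threshold does not show that the effects were equal.

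**Figure D5:**
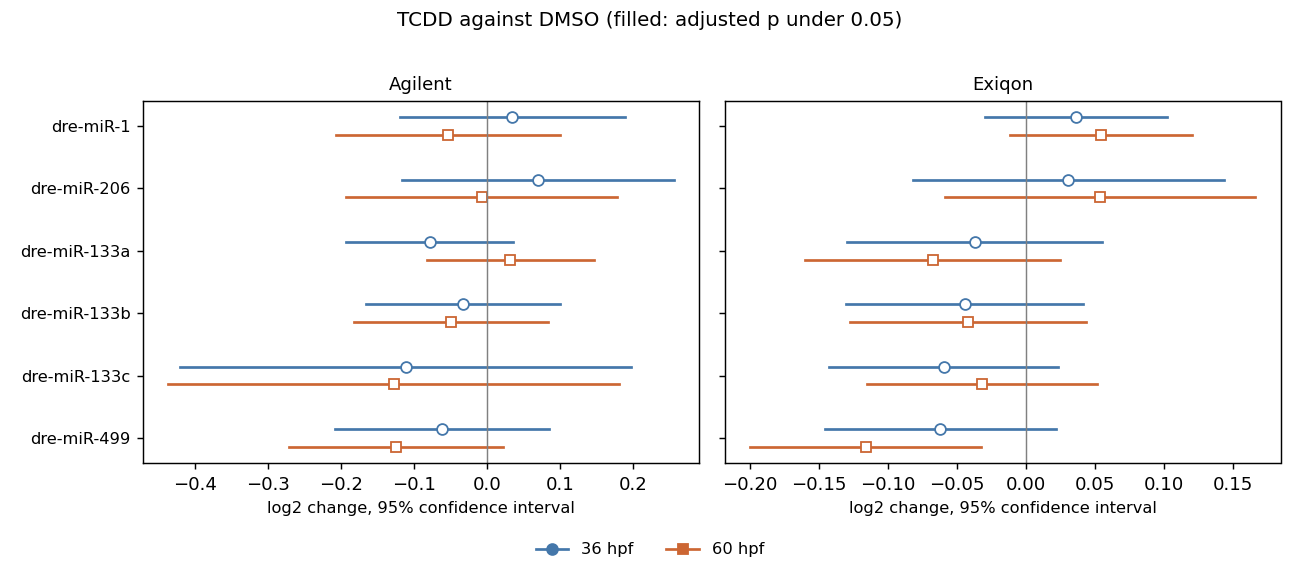
Change of each muscle miRNA with TCDD against DMSO (log2, horizontal axes, with 95% confidence intervals) at 36 hpf (circles) and 60 hpf (squares) on Agilent and Exiqon arrays; no symbol is filled, since no adjusted p was under 0.05. The interval of dre-miR-499 at 60 hpf on Exiqon, -0.20 to -0.032, is the one that leaves out 0.

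A wider list of 12 miRNAs with described roles in heart, vessel or muscle of fish or mammals gives the surroundings of the 6. This list was chosen with earlier results of these data known, so its counts and medians are a description. Of the 12 miRNAs, 10 were on each array type, and dre-miR-208 and dre-miR-486 were on neither. On Agilent 8 were tested and on Exiqon 10. Between stages in DMSO embryos 7 of 8 were higher and 1 lower on Agilent, and 8 of 10 were higher and 1 lower on Exiqon, beside 48.5% higher and 32.8% lower of all Agilent and 48.9% and 16.1% of all Exiqon miRNAs. The median change of the list was 0.86 and 0.59, beside 0.13 and 0.11 over all. In TCDD embryos 7 of 8 were higher and 1 lower on Agilent and 9 of 10 higher and 1 lower on Exiqon, beside 50% and 31.3%, and 52% and 16.6%, of all miRNAs. The medians were 0.95 and 0.71, beside 0.18 and 0.14 over all. dre-miR-218b, of a family that guides heart tube formation in zebrafish, changed by 1.76 ± 0.08 on Agilent and 1.25 ± 0.03 on Exiqon in DMSO embryos. dre-miR-138, which takes part in heart chamber patterning in zebrafish, changed by 1.66 ± 0.11 and 1.41 ± 0.04. It was also used here as a neural marker, and whole embryos do not show which tissue its change came from. dre-miR-143, a smooth muscle miRNA, changed by 0.84 ± 0.13 and 1.30 ± 0.05. On Agilent it was detected on 6 of 12 arrays and was tested because every array of a group detected it. Its Agilent change thus rests partly on undetected values, and it is counted among the 7 of 8. The miRNA that was lower was dre-miR-21 on Agilent, at -0.24, and dre-miR-736 on Exiqon, at -0.22.

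With TCDD, 0 of 8 listed miRNAs on Agilent and 0 of 10 on Exiqon passed at 36 hpf by limma. At an unadjusted p under 0.05 there were 0 and 2, beside 7 of all 134 and 16 of all 223. At 60 hpf 1 of 8 passed on Agilent and 2 of 10 on Exiqon, each of them higher, beside 2.99% and 6.73% of all miRNAs. They were dre-miR-23a, at 0.60 ± 0.11 on Agilent (adjusted p = 0.00642) and 0.34 ± 0.03 on Exiqon (adjusted p = 3.93e-05), and dre-miR-23b, at 0.29 ± 0.03 on Exiqon (adjusted p = 6.96e-05). Since the list was chosen with earlier results known, these counts say nothing of the list as a set. miR-23 is known for roles in vessel growth and, in zebrafish, in the formation of the heart valves. The 6 muscle miRNAs on the same arrays changed by at most 0.13 log2 at this stage with the scalings used, taken without sign.

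The miRNAs whose profile over the 12 arrays was most like a member's were found by the root mean square difference after each miRNA was centred on its own mean. On Agilent the nearest of the other tested miRNAs was dre-miR-16b to dre-miR-1 (0.042 log2), dre-miR-429 to dre-miR-206 (0.05), dre-miR-204 to dre-miR-133a (0.082), dre-miR-22a to dre-miR-133b (0.04), dre-miR-203a to dre-miR-133c (0.16) and dre-miR-301a to dre-miR-499 (0.074). The next nearest, in the same order, were dre-miR-26b, dre-miR-130c, dre-miR-141, dre-miR-16c, dre-miR-203b and dre-miR-205. On Exiqon the nearest was dre-miR-462 to dre-miR-1 (0.037), dre-miR-30a to dre-miR-206 (0.055), dre-miR-30c to dre-miR-133a (0.028), dre-miR-19d to dre-miR-133c (0.039) and dre-miR-212 to dre-miR-499 (0.043). To dre-miR-133b it was the probe shared by dre-miR-133a and dre-miR-133b (0.032). The next nearest there were dre-miR-25, dre-miR-736, dre-miR-30b, dre-miR-222, dre-miR-365 and, for dre-miR-133b, dre-let-7i. No member had the own probe of another member as its nearest. On Agilent the members farthest apart were dre-miR-133a and dre-miR-133c, at 0.63, and the nearest were dre-miR-1 and dre-miR-133b, at 0.098. On Exiqon the farthest were dre-miR-206 and dre-miR-499, at 0.32, and the nearest were dre-miR-1 and dre-miR-133b, at 0.066. The Exiqon profile of dre-miR-1 is that of its brighter probe. These profiles share arrays and scaling, and the difference is a description with no test.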

How the data were processed

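Total RNA of whole embryos was hybridised to 12 Agilent arrays (1 colour, Cy3) and 12 Exiqon arrays (2 colours). The Agilent values are background-subtracted spot intensity from Feature Extraction 9.5, per the submitters' processing notes, and equal the table that the authors deposited (largest difference 0). The Exiqon files hold spot intensity of both channels, per the file headers. The authors' deposited Exiqon table looks like a log2 ratio (r = 0.898 to 0.972 with the scanner ratios, slope 1.14 to 1.22, array medians -0.020 to 0.16, 0 to 332 missing values), and no source used here says how it was normalized.

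Agilent outlier spots (3.05% to 6.39% per array) were dropped, intensity was divided by the 75th percentile of its array (taken over 186 probes that every array detected), floored at 0.0270 (a level set after the data were seen), taken to log2 and averaged over spots. Probes with at least 0.5 of their spots well above background were detected (191 to 277 of 490 per array, 0 to 30 saturated spots). A name took its brightest probe with under 0.5 saturated spots, which replaced the probe of 5 names, and 134 were tested. Exiqon spots marked by the software (4.51% to 18.3%) were dropped, background was corrected with normexp (offset 50) and arrays were normalized by global loess. Landmark spots of at least 12626 in Hy3 and at most 135 in Hy5 gave the channels. A probe was detected above background by 2 SD (241 to 255 of 255), names took the brightest probe, 223 were tested, and 0 spots were saturated. Arrays of a group correlated at 0.990 to 0.999 on Agilent and 0.907 to 0.990 on Exiqon, and across stages at 0.859 to 0.903 on Agilent.

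A model of 4 group means over 12 arrays was fitted per array type (limma 3.58.1, R 4.3.3; files were read using data.table, release 1.17.8), with Benjamini-Hochberg adjusted p over all miRNAs of a contrast, and was tested on simulated data. An exact test of 3 against 3 arrays cannot pass the threshold and was not used. Every member is named, the 2 nearest profiles of each, and the listed miRNAs past the threshold. The members and lists were chosen with earlier results of these data known. Alternatives covered background, scaling, probe choice, filters, batches, the replicate block and leaving out each array. Changes relative to the median of all miRNAs and differences within an array were added after the data were seen.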

Additional observations from a re-analysis of the deposited data

How the results depend on the processing

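The counts of muscle miRNAs past the threshold with TCDD and for the difference between stages were 0 under every alternative run, with the exception of Exiqon at 60 hpf, which gave 1 without 60 hpf TCDD replicate 2. Leaving out each array in turn gave 0 to 0 on Agilent for both stages and the difference, 0 to 0 on Exiqon at 36 hpf and for the difference, and 0 to 1 on Exiqon at 60 hpf. Between stages it gave 4 to 5 on Agilent in DMSO and in TCDD embryos, 4 to 4 on Exiqon in DMSO embryos and 3 to 4 in TCDD embryos. With the Exiqon sample channel alone the stage counts were 2 and 2 in place of 4 and 4. Over all 223 miRNAs, calls in DMSO embryos were then 44 higher and 18 lower in place of 109 and 36. In TCDD embryos they were 31 and 57 in place of 116 and 37. Scaling turned these stage changes, in DMSO and TCDD embryos. With the percentile over all Agilent probes dre-miR-133b was -0.20 and -0.17, dre-miR-499 -0.25 and -0.27, and dre-miR-1 in TCDD embryos -0.031. With Agilent quantile normalization dre-miR-206 was 0.016 and 0.096, and dre-miR-499 -0.35 and -0.35. With Exiqon median centring dre-miR-206 was 0.16 and 0.34, and dre-miR-133c 0.086 and 0.18. With the Exiqon sample channel alone dre-miR-1 was -0.30 and -0.20, dre-miR-133a -0.38 and -0.33, dre-miR-133b -0.54 and -0.41, and dre-miR-499 in TCDD embryos -0.26. With the deposited Exiqon table dre-miR-1 was -0.097 and -0.079 and dre-miR-133b -0.063 and -0.041. The cause was not tested.

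The labels do not say that a number marks a shared batch, though Agilent replicate 1 is also the first slide. Deviations of same-numbered arrays correlated from -0.53 to 0.60 on Agilent (median 0.19, against -0.089 for different numbers) and from -0.29 to 0.31 on Exiqon (median 0.053, against -0.0034) over 18 pairs, and 7 of 12 and 3 of 12 arrays correlated best with their own number. The numbers were not used as a pairing, since the labels give none. Same-numbered pairs on both array types included negative correlations, but these values cannot exclude a batch shared by number. A replicate block gave 5 muscle miRNAs in place of 4 for Agilent DMSO embryos between stages (dre-miR-133b, adjusted p = 0.0373), 4 for each other stage comparison and 0 for each TCDD comparison. Over all miRNAs the block took the Agilent difference between stages from 2 calls to 0 and the Exiqon one from 6 to 4. The scan as a block could not be fitted, since the apart scan held 1 group.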

Other observations

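The passenger strand of miR-133a, dre-miR-133a*, fell between stages in TCDD embryos on Agilent, at -0.57 ± 0.14 log2 (adjusted p = 0.00203), and was -0.23 ± 0.14 in DMSO embryos (adjusted p = 0.143). On Exiqon the same strand rose in TCDD embryos, at 0.17 ± 0.069 (adjusted p = 0.0455), and was 0.11 ± 0.069 in DMSO embryos (adjusted p = 0.181), so the array types went opposite ways. The difference of its TCDD effect between stages was -0.34 ± 0.19 on Agilent (adjusted p = 0.618) and 0.057 ± 0.097 on Exiqon (adjusted p = 0.859). dre-miR-133b* was detected on 0 of 12 Agilent arrays and fell on Exiqon in TCDD embryos, at -0.15 ± 0.055 (adjusted p = 0.0269), where the stages overlapped. In DMSO embryos its Exiqon change was -0.011 ± 0.055 (adjusted p = 0.866). The difference of its TCDD effect between stages was -0.14 ± 0.077 (adjusted p = 0.483). In the wider list, dre-miR-21 in TCDD embryos also went opposite ways between stages, at -0.20 ± 0.05 on Agilent (adjusted p = 0.00175) and 0.21 ± 0.04 on Exiqon (adjusted p = 0.000283). Relations between these strands and the guide strands were not tested.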
